A study of Mus musculus with 3 samples.

Results

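The Kruppel-like factors examined here were Klf2, Klf3, Klf4, Klf5, Klf6, Klf9, Klf10, Klf13 and Klf16, 9 genes taken by name, with no measured value in the rule. Of these, 8 stood under their own name in all 3 samples, among 25350 genes that did so, and Klf9 shared its name with a neighbouring locus in 2 samples. Expression was measured by polyA RNA-seq in mouse embryonic stem (ES) cells of the C57BL/6 strain, grown on inactivated fibroblast feeders with serum and leukemia inhibitory factor (LIF). The groups were wild-type cells (WT), cells in which Cas9 had removed exons 2 and 3 of Pcgf1 (Pcgf1-/-), and Pcgf1-/- cells carrying FLAG-tagged Pcgf1 from a lentivirus (Pcgf1-/-+Pcgf1). Pcgf1 is the defining subunit of PRC1.1, a variant Polycomb repressive complex that places ubiquitin on histone H2A. The Pcgf1-/- line came from a colony picked after transfection and puromycin treatment. The Pcgf1-/-+Pcgf1 line was made from Pcgf1-/- cells and was also selected with puromycin. Each group had 1 sample, so no difference below has a replicate check in these RNA-seq data and no test between groups was possible. Levels are in FPKM, fragments scaled to transcript length and to the mapped fragments of the sample, which allows genes to be compared per length. Pcgf1 itself had an FPKM of 13.95 (WT), 5.88 (Pcgf1-/-) and 7.86 (Pcgf1-/-+Pcgf1). The value covers transcripts with and without the removed exons, so the level alone does not check the labels.

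Kruppel-like factors are transcription factors that share C-terminal zinc fingers and bind GC-rich and CACCC elements in promoters and enhancers. In mouse ES cells Klf2, Klf4 and Klf5 belong to the network that holds naive pluripotency, and their joint loss leads to differentiation. Klf4 is a target of LIF signalling through Stat3 and one of the reprogramming factors, while Klf2 acts downstream of Oct4. Other members mainly repress: Klf3 through the corepressor CtBP, and Klf9, Klf10, Klf13 and Klf16 through Sin3.

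The sequences upstream of Klf4 and Klf2 are shown because these genes had the lowest and the highest expression of the 6 members with values above 0, and ran in opposite order across the samples. They come from the RefSeq promoters of GRCm38.p6, the same assembly as mm10, and end before the annotated first exon, which left 250 bases of Klf4 and 221 of Klf2. Capitals mark GC boxes, GGGCGG or its complement CCGCCC, to which Sp and Kruppel-like factors can bind. The first lies on the minus strand at chr4:55532476-55532725 and the second on the plus strand at chr8:72318812-72319032.
Klf4: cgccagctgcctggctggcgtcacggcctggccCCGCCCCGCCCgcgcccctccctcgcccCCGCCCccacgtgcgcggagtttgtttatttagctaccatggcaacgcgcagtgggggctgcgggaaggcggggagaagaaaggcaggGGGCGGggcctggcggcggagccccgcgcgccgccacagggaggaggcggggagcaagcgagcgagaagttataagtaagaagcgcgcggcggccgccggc
Klf2: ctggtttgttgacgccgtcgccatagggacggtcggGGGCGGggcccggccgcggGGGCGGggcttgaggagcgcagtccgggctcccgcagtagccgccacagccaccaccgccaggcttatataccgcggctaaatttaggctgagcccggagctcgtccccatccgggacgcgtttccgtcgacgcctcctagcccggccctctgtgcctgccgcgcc

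Klf4 held 4 GC boxes, a pair of them overlapping, and 32 CpG in the 250 bases before its start, and Klf2 held 2 GC boxes and 29 CpG, of which 28 lie in the stretch printed. The promoter table had entries for 6 of the 9 members, and 5 of those held a GC box, the exception being Klf9. In the same 250 bases of all 32851 promoters of the table, 32.7% held a GC box on either strand. The CpG number of the 6 members ran from 18 in Klf9 to 32 in Klf4, against a median of 6 over all promoters. Klf4 thus had more CpG than 95.4% of the promoters in the table, Klf2 than 93.2%, and Klf9, the lowest of the 6, than 78.3%. Such CpG-rich sequence is where Kdm2b, the DNA-binding partner of Pcgf1, is known to bind when it is unmethylated. Binding was not measured in the files used here.

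The study's primer pair for chromatin immunoprecipitation at Klf4 is shown because it gives the stretch the study examined.
Klf4 ChIP forward: ggacctacttatctgccttgc
Klf4 ChIP reverse: gagccccaaagtcaacgaag
Matched to the main Klf4 transcript of GENCODE vM21, the pair encloses 200 bases of exon 1 on chromosome 4, from 55531926 to 55532125 of mm10. The stretch lies in the 5′ UTR, 341 bases inside the annotated start and before the start codon, and so downstream of the promoter printed above. The RT-PCR pair for Klf4 lies in exons 4 and 5. By RT-qPCR in independent biological repeats, the paper reported significantly lower Klf4 in Pcgf1-/- than in WT ES cells. By ChIP-qPCR it reported binding of FLAG-tagged Pcgf1 at Klf4, and less H2A ubiquitin there in Pcgf1-/- cells. At its selected targets, Klf4 among them, it also reported less BcoR, Ring1B, Suz12 and H3K27me3 in Pcgf1-/- cells, with Rybp unaltered.

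Klf4 (ENSMUSG00000003032, minus strand of chromosome 4, 55527143 to 55532466) had the lowest level of the 6 expressed members and the widest ratios. Klf4 had an FPKM of 2.62 (WT), 1.19 (Pcgf1-/-) and 8.07 (Pcgf1-/-+Pcgf1). It was thus lowest without Pcgf1 and highest after its return, where it stood above WT. Ratios were taken on FPKM plus 0.1, which understates the change of low genes, and were called past 2-fold. The log2 ratio of Klf4 was -1.08 for Pcgf1-/- to WT and 2.66 for Pcgf1-/-+Pcgf1 to Pcgf1-/-, that is, 2.11-fold lower and 6.34-fold higher. These ratios share the Pcgf1-/- sample. Against WT, Pcgf1-/-+Pcgf1 had a log2 ratio of 1.58, or 3.0-fold higher.

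Klf4 was the member past 2-fold in each of the 3 comparisons, 1 of 8, of which 6 were above 0. Over all genes, 4.98% were lower and 2.16% higher past 2-fold in Pcgf1-/- than in WT. In Pcgf1-/-+Pcgf1 against Pcgf1-/-, 6.35% were higher and 2.22% lower, and against WT 3.99% were higher and 2.36% lower. Read against these shares, 1 of 8 members is not a result about the family. Of the genes that reached 1 FPKM in either sample, 5.34% had a lower ratio of Pcgf1-/- to WT than Klf4. In contrast, 1.61% had a higher ratio of Pcgf1-/-+Pcgf1 to Pcgf1-/-, and 1.76% a higher ratio of Pcgf1-/-+Pcgf1 to WT. The first change therefore lay near the edge of what many genes showed, and the higher level in Pcgf1-/-+Pcgf1 lay further out. With a pseudocount of 1 FPKM the first ratio was -0.73, short of 2-fold.

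The 6 measured ES cell markers had a summed FPKM of 1940 (WT), 1902 (Pcgf1-/-) and 1752 (Pcgf1-/-+Pcgf1). Most of it came from Pou5f1, Utf1 and Tdgf1, with 670, 600 and 449 in WT, so the sum says little about the others. Of the 6, Nanog alone passed 2-fold, higher in Pcgf1-/-+Pcgf1 than in Pcgf1-/-, beside 6.35% of all genes. The cells were grown on fibroblasts, which also express Klf4 and other members. Of 23 measured fibroblast markers, 6 were lower past 2-fold in Pcgf1-/- than in WT and 0 higher, beside 4.98% and 2.16% of all genes. In Pcgf1-/-+Pcgf1 against Pcgf1-/-, 6 were higher and 1, Twist1, was lower, beside 6.35% and 2.22%. At any size, of 22 above 0, 14 were lower and 8 higher in Pcgf1-/- than in WT. Sparc, Timp1, Loxl1 and Thbs1 were among those higher. Against Pcgf1-/-, 16 were higher and 6 lower in Pcgf1-/-+Pcgf1. Col1a1 had an FPKM of 1.88 (WT), 0.390 (Pcgf1-/-) and 2.21 (Pcgf1-/-+Pcgf1), Col6a1 had 1.02, 0.404 and 1.08, and Thy1 had 14.2, 6.39 and 13.5. Cd44 had 0.4455, 0.0709 and 0.4996. These 4 were lowest in Pcgf1-/-, as Klf4 was, and near the WT level in Pcgf1-/-+Pcgf1, where Klf4 was above it. The other 2 of the 6 were also lowest in Pcgf1-/- but stayed below WT in Pcgf1-/-+Pcgf1, Col1a2 with 0.635, 0.0213 and 0.148 and Pdgfrb with 0.309, 0.0913 and 0.151. Cd44, Col1a2 and Pdgfrb were below 1 FPKM in every sample, near the bottom of the scale. Fbn1 had 0.551, 0.473 and 1.16, Dcn had 0.352, 0.779 and 1.18, and Twist1 had 2.09, 3.19 and 0.763. The summed FPKM of all 23 was 457, 444 and 429, most of it from Sparc, Fn1, Timp1 and Vim, and that of the 19 markers below 20 FPKM was 33.5, 22.7 and 34.1. Postn was listed at 0 in all samples, and Lum and Prrx1 were at 0 in Pcgf1-/-. The part of feeder cells in the Klf4 values was not tested, and fewer cells of a type cannot be told apart from less RNA per cell.

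In every sample the whole Klf4 value came from transcripts starting at exon 1, and exon 2 was included throughout. A further first exon listed over exon 2 had an FPKM of 0 in all 3 samples. First and last exons of Klf4 had the same coordinates and the same sums in each list. The number of fragments is not in the files. The most common low value of FPKM times transcript length was taken as a step. If this step is read as 1 fragment, Klf4 rested on about 150 (WT), 80 (Pcgf1-/-) and 490 (Pcgf1-/-+Pcgf1) fragments. Whether the step is 1 fragment was not tested.

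**Figure D1:**
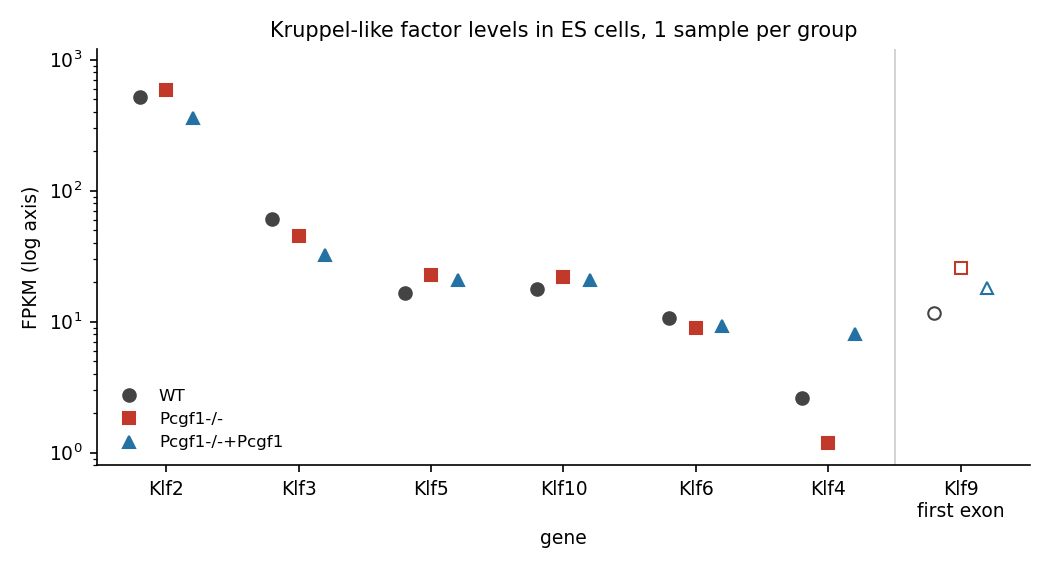
FPKM on a log axis of the 6 Kruppel-like factors above 0 (filled symbols) and of the first exon of Klf9 (open symbols), with 1 point per sample. Klf2 lies between 357 and 590 in all samples, and Klf4 lies lowest in each, at 2.62, 1.19 and 8.07; Klf13 and Klf16, listed at 0, are not drawn.

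Klf2 (ENSMUSG00000055148, chromosome 8, 72319033 to 72321656) was the most abundant member by far, with an FPKM of 517 (WT), 590 (Pcgf1-/-) and 357 (Pcgf1-/-+Pcgf1). Its order across the samples was the reverse of that of Klf4. The log2 ratio was 0.19 for Pcgf1-/- to WT, -0.73 for Pcgf1-/-+Pcgf1 to Pcgf1-/- and -0.54 for Pcgf1-/-+Pcgf1 to WT, each within 2-fold. The number of genes with a higher FPKM than Klf2 was 100 (WT), 90 (Pcgf1-/-) and 131 (Pcgf1-/-+Pcgf1). Klf2 made up 82.7% (WT), 85.5% (Pcgf1-/-) and 79.6% (Pcgf1-/-+Pcgf1) of the summed FPKM of the 6 expressed members. The level of Klf2 exceeded that of Klf4 by a factor of 197 (WT), 496 (Pcgf1-/-) and 44.2 (Pcgf1-/-+Pcgf1). Because Klf2 and Klf4 ran in opposite order, this factor had to differ more between samples than Klf2 itself, so its spread is no further result. In Pcgf1-/- it rests on a Klf4 value of 1.19 FPKM. The family sum was 625 (WT), 690 (Pcgf1-/-) and 448 (Pcgf1-/-+Pcgf1) FPKM.

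Klf5 (ENSMUSG00000005148, chromosome 14, 99298691 to 99315036), which sustains self-renewal and is needed in the early embryo, had an FPKM of 16.5 (WT), 22.9 (Pcgf1-/-) and 20.8 (Pcgf1-/-+Pcgf1). Both mutant lines were above WT and close to each other. The log2 ratio to WT was 0.46 for Pcgf1-/- and 0.33 for Pcgf1-/-+Pcgf1. The Klf5 models in the lists were not of equal length. The last exon was listed with 255 bases in WT and Pcgf1-/-+Pcgf1 but with 1886 bases in Pcgf1-/-, as long as in GENCODE. FPKM divides by length, and how far this moved the Klf5 ratio was not tested.

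Klf3 (ENSMUSG00000029178, chromosome 5, 64803388 to 64832901), a repressor that works with CtBP, had an FPKM of 60.7 (WT), 44.8 (Pcgf1-/-) and 32.3 (Pcgf1-/-+Pcgf1). It was second to Klf2 in every sample and was lower in Pcgf1-/-+Pcgf1 than in Pcgf1-/-, where Klf4 was higher. Its log2 ratio was -0.44 for Pcgf1-/- to WT, -0.47 for Pcgf1-/-+Pcgf1 to Pcgf1-/- and -0.91 for Pcgf1-/-+Pcgf1 to WT. Of genes at 1 FPKM or above in either sample, 3.25% had a lower ratio in the last of these. The direction against WT rested on which exons were summed. First exons summed to 60.7 FPKM in WT but the last exon had 31.5, whereas both sums were equal in the other samples. By last exons, the log2 ratio was 0.51 for Pcgf1-/- to WT and 0.04 for Pcgf1-/-+Pcgf1 to WT, so the direction against WT turned in both.

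Klf3 was the only expressed member with a pair of first exons in use. The upstream exon starts at 64803388 and the downstream exon at 64812339. The upstream exon had an FPKM of 40.7 (WT), 23.5 (Pcgf1-/-) and 16.5 (Pcgf1-/-+Pcgf1). The downstream exon had 20, 21.4 and 15.8, and those listed further downstream had 0. Pcgf1-/- therefore differed from WT in the upstream exon, with a log2 ratio of -0.79, and hardly in the downstream exon, with 0.09. The upstream exon carried 67.1% (WT), 52.4% (Pcgf1-/-) and 51.1% (Pcgf1-/-+Pcgf1) of the first-exon signal. In WT, 29.2 FPKM of first-exon signal had no counterpart at the listed last exon, and this excess falls in the same sample as the higher share of the upstream exon.

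**Figure D2:**
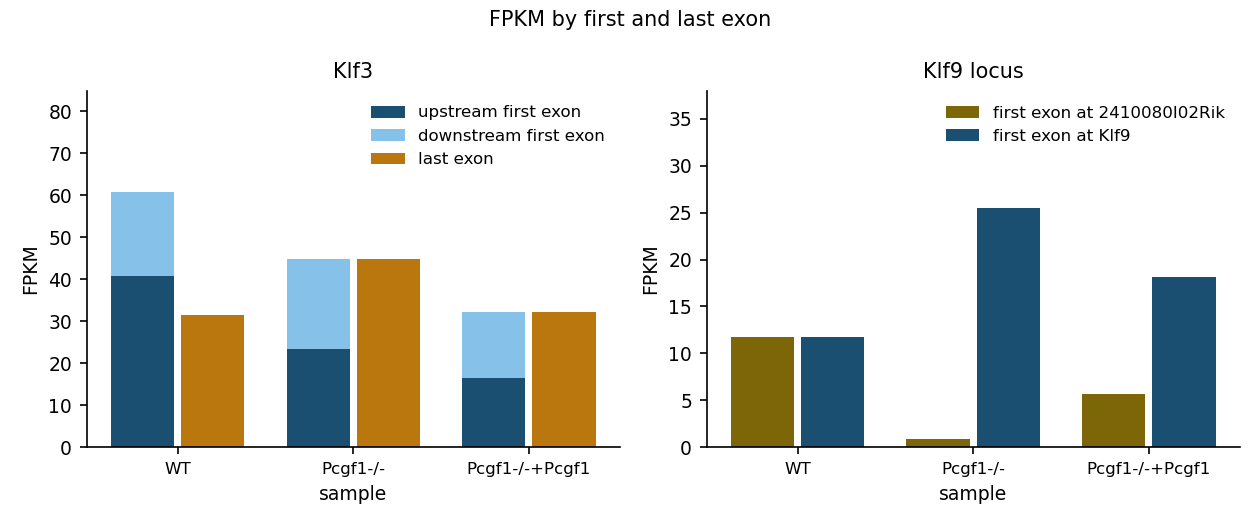
FPKM by exon in each sample for Klf3 (left) and for the locus of Klf9 and 2410080I02Rik (right), with bars from 0 and no error bars because each group had 1 sample. For Klf3 the stacked first exons exceed the last exon in WT, at 60.7 against 31.5; at the Klf9 locus both first exons stand at 11.7 in WT, and at 0.871 and 25.5 in Pcgf1-/-.

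Klf10 (ENSMUSG00000037465, chromosome 15, 38291463 to 38300706) is induced by TGF-beta and represses through Sin3. It had an FPKM of 17.6 (WT), 21.9 (Pcgf1-/-) and 21.0 (Pcgf1-/-+Pcgf1), with log2 ratios to WT of 0.31 and 0.25. Its values ran beside those of Klf5 in every sample, and the order of this pair turned between samples: Klf10 was above Klf5 in WT and Pcgf1-/-+Pcgf1 and below it in Pcgf1-/-. Klf6 (ENSMUSG00000000078, chromosome 13, 5861482 to 5870394), induced upon injury and growth stimuli in many tissues, had its largest log2 ratio at -0.24, the smallest such value of the 6. It had 10.6, 8.97 and 9.20 FPKM in WT, Pcgf1-/- and Pcgf1-/-+Pcgf1, and its log2 ratio was 0.04 between the last pair.

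Klf9 (ENSMUSG00000033863, chromosome 19, 23141226 to 23168134), a repressor responsive to steroid and thyroid hormones, was listed alone in Pcgf1-/- only. In WT and Pcgf1-/-+Pcgf1 its locus was joined with 2410080I02Rik, whose first exon starts upstream at 23134900. The first exon at Klf9 itself had an FPKM of 11.7 (WT), 25.5 (Pcgf1-/-) and 18.2 (Pcgf1-/-+Pcgf1). The first exon at 2410080I02Rik had 11.7, 0.871 and 5.71. The sum over both was nearly level, at 23.4, 26.4 and 23.9 FPKM. Hence Pcgf1-/- differed from WT by a log2 ratio of 1.12 for the Klf9 first exon but 0.17 for the locus. No last exon at Klf9 was listed in WT, and the Klf9 first exon was listed with 2079 (WT), 1408 (Pcgf1-/-) and 1487 (Pcgf1-/-+Pcgf1) bases. For this reason Klf9 was kept out of the counts of members past 2-fold.

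Klf13 (ENSMUSG00000052040, chromosome 7, 63886351 to 63938915) and Klf16 (ENSMUSG00000035397, chromosome 10, 80567124 to 80577321), both repressors that bind Sin3, were listed at 0 in all 3 samples for every first and last exon. The same held for 44.5% of all genes. A listed 0 can be a failed estimate, so it is not taken as absence of expression and no ratio is given for this pair.

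**Figure D3:**
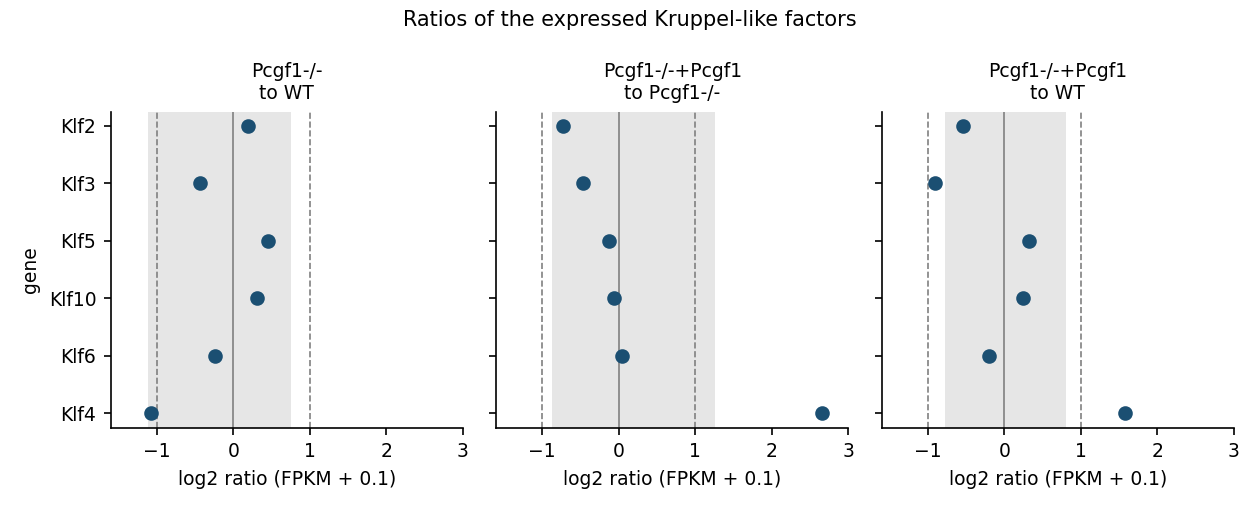
Log2 ratios on FPKM + 0.1 of the 6 expressed Kruppel-like factors in 3 comparisons, with 1 point per gene, dashed lines at 2-fold and a grey band from the 5th to the 95th percentile of genes that reached 1 FPKM in either sample. Klf4 lies at -1.08, just inside the band, in the first comparison and outside it at 2.66 and 1.58 in the others; Klf3 lies below the band at -0.91 in the last.

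Ordered by FPKM in WT, the expressed members ran Klf2, Klf3, Klf10, Klf5, Klf6 and Klf4. Klf2, Klf3, Klf6 and Klf4 kept their ranks in all 3 samples. Neighbours such as Klf5 and Klf10 cannot be separated without replicates. In Pcgf1-/-+Pcgf1 the gap between Klf6 at 9.20 and Klf4 at 8.07 was small, where in Pcgf1-/- it ran from 8.97 to 1.19.

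Between Pcgf1-/- and WT the 6 expressed members had a median log2 ratio of -0.02, with 3 higher and 3 lower, against -0.12 over all genes above 0 in either sample. For Pcgf1-/-+Pcgf1 to Pcgf1-/- it was -0.10, against 0.05, and for Pcgf1-/-+Pcgf1 to WT 0.02, against -0.07. Of the 8 other Klf genes, 6 were named alone in all samples and none was past 2-fold in Pcgf1-/- against WT. Of all genes, 7.14% were past 2-fold either way there, so none of 6 is not a result about these genes. Klf8, which like Klf3 recruits CtBP, had an FPKM of 5.61, 8.28 and 7.31 in WT, Pcgf1-/- and Pcgf1-/-+Pcgf1. In the same order, Klf15 had 4.0, 5.91 and 6.03 by last exons, but 0.729, 0.719 and 2.60 by first exons. Klf11 was level at 8.24, 7.68 and 8.12. Klf17 passed 2-fold in Pcgf1-/-+Pcgf1 against Pcgf1-/-, with values of 0.0426, 0 and 0.275 that lie near the bottom of the scale.

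Of the 9 Sp genes, relatives that bind the same GC boxes, 5 were above 0 and none was past 2-fold in Pcgf1-/- against WT. The share of all genes past 2-fold either way there was 7.14%, so this is not a result about the Sp genes. Sp1 had 20.04, 18.98 and 18.7 FPKM in WT, Pcgf1-/- and Pcgf1-/-+Pcgf1. Sp5, a Wnt target, had 0.757, 0.461 and 1.33, and was past 2-fold in Pcgf1-/-+Pcgf1 against Pcgf1-/-, with a log2 ratio of 1.35. Of 9 corepressors and ubiquitin ligases of Kruppel-like factors that could be measured, none was past 2-fold in any of the 3 comparisons. Of all genes, 7.14% (Pcgf1-/- to WT), 8.57% (Pcgf1-/-+Pcgf1 to Pcgf1-/-) and 6.34% (Pcgf1-/-+Pcgf1 to WT) were. So short a list is not a result beside these shares. Ctbp1, the partner of Klf3, had 33.4, 30.6 and 27.2 FPKM, and Sin3a had 42.5, 45.0 and 51.4.

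Of 8 genes of the LIF to Stat3 pathway, targets of Stat3 included, 7 were above 0. None of these was past 2-fold in any of the 3 comparisons. Of all genes, 7.14% were past 2-fold either way in Pcgf1-/- to WT. The share was 8.57% in Pcgf1-/-+Pcgf1 to Pcgf1-/- and 6.34% in Pcgf1-/-+Pcgf1 to WT. Beside such shares, none of 7 genes is not a result about the pathway. Stat3 had an FPKM of 24.7 (WT), 21.8 (Pcgf1-/-) and 21.0 (Pcgf1-/-+Pcgf1), and Lifr, the receptor subunit, had 7.20, 8.52 and 6.77. For Lifr, the WT value came from first exons, with last exons at 0. The Pcgf1-/- value came from last exons, with first exons at 0, so these 2 values are not of the same exons. Pim1, a Stat3 target, had 50.5, 62.8 and 34.2, an order shared with Klf2 rather than with Klf4. Socs3, the usual readout of the pathway, was listed at 0 in all samples. As with Klf13 and Klf16, a listed 0 can be a failed estimate and is not taken as absence of expression.

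Among the 13 measured pluripotency factors, 2 were higher and 2 lower past 2-fold in Pcgf1-/- than in WT, beside 2.16% and 4.98% of all genes. Dppa3, a maternal factor of naive cells, had 38.3, 17.5 and 60.1 FPKM in WT, Pcgf1-/- and Pcgf1-/-+Pcgf1, and Tcl1, a coactivator of Akt, had 9.11, 4.499 and 31.5. Both thus had the order seen in Klf4. Nanog, Nr0b1 and Prdm14 also had it, and the other measured factors did not. Nr0b1 had 31.8, 22.6 and 40.3 FPKM, and Prdm14 had 1.94, 1.78 and 3.22. By last exons alone Prdm14 did not share the order, with 1.28, 1.43 and 3.22. Tbx3 had 0.233, 1.43 and 3.61, and the nuclear receptor Nr5a2 had 4.503, 9.84 and 9.45, so that these were above WT in both mutant lines. In Pcgf1-/-+Pcgf1 against Pcgf1-/-, 4 of the 13 were higher past 2-fold and 0 lower, beside 6.35% and 2.22% of all genes, namely Nanog, Dppa3, Tcl1 and Tbx3. Nanog had 68.2, 46.3 and 123 FPKM, and Pou5f1, which encodes Oct4, had 670, 518 and 626. Esrrb stayed near level at 85.3, 94.8 and 77.2.

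By the distance between both log2 ratios, the gene most like Klf4 among 8623 genes at 1 FPKM or above in every sample was Tcl1, at 0.14. Its log2 ratios were -1.0 and 2.78, against -1.08 and 2.66 for Klf4. The next were Gm17177 at 0.37, Sohlh2 at 0.61, C330021F23Rik at 0.62 and 4930461G14Rik at 0.64. Sohlh2, a germ cell transcription factor, had 4.0, 2.44 and 22.2 FPKM. The likeness is over 3 samples and holds no test.

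Klf2, Klf4, Klf6 and Klf10 also respond to serum and growth factors, so immediate-early genes were read beside them. Of 13 measured, 2 were higher past 2-fold in Pcgf1-/- than in WT and 0 lower, beside 2.16% and 4.98% of all genes. The 11 above 0 split into 6 higher and 5 lower at any size. Myc had an FPKM of 30.3 (WT), 65.5 (Pcgf1-/-) and 23.2 (Pcgf1-/-+Pcgf1), and Fosl1 had 1.06, 2.66 and 0.950. In Pcgf1-/-+Pcgf1 against Pcgf1-/-, 3 were lower and 1 higher past 2-fold, beside 2.22% and 6.35% of all genes. Myc, Fosl1 and the nuclear receptor Nr4a1 were lower, with log2 ratios of -1.50, -1.39 and -1.36, and Egr2 was higher, with 1.05 and an FPKM of 0.244, 0.0764 and 0.265. Myc, Fosl1 and Nr4a1 were highest in Pcgf1-/-, as Klf2 was, but the list as a whole was not: Ier3 had 40.9, 28.6 and 27.3 FPKM, highest in WT, and Egr1 had 5.03, 4.55 and 4.11. Their part in the Klf2 values was not tested.

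**Figure D4:**
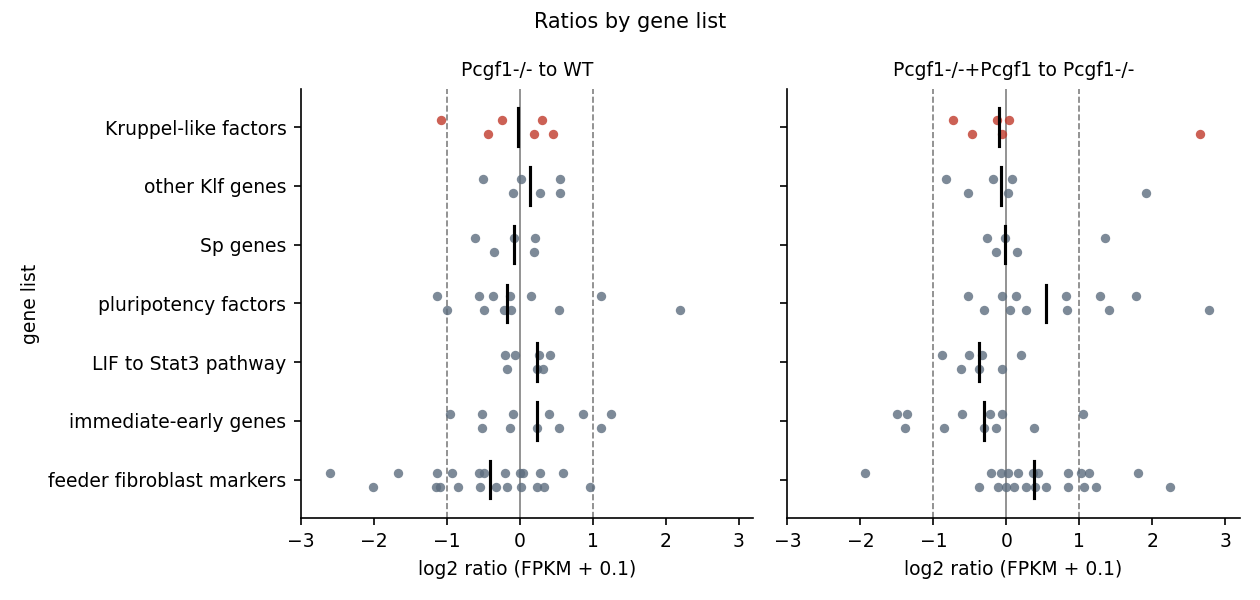
Log2 ratios on FPKM + 0.1 by gene list in 2 comparisons, with 1 point per gene above 0 in either sample, black bars at the median and dashed lines at 2-fold. The Kruppel-like factors (red) have medians of -0.02 and -0.10 with Klf4 apart at -1.08 and 2.66, and the feeder fibroblast markers have medians of -0.40 and 0.38.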

How the data were processed

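The authors made polyA libraries sequenced as paired ends and aligned them to mm10 with TopHat2 2.0.12. The processing notes of the submitters also name Cufflinks 2.2.1 and HTSeq 0.6.0, with no role. The program that made the event lists is not given in the sources used here. The deposited lists give an FPKM for each transcript event of 1 sample, computed by the authors. They hold no counts, so the depth is unknown, no count test was run and each group has 1 sample. Between 62% and 63.6% of rows were at 0, and 9.91% to 9.98% had joined gene names.

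For each gene the FPKM of first-exon rows (TSS) and of last-exon rows (TTS) were added up and the larger total taken. For 20801 of 25350 genes both were equal (within 0.001 FPKM) in all samples. Names turned into dates and joined names were left out. Ratios used FPKM plus a pseudocount of 0.1, with calls past 2-fold. The calling was tested on simulated data, a copy of the WT values with planted changes and no noise. That checks the arithmetic and says nothing about the error with 1 sample a group. Members and lists were chosen with earlier results of these data known. Named genes are all members, Pcgf1, list genes past 2-fold that reached 1 FPKM, and the 5 genes closest to Klf4. Other genes named from the lists were picked after their values were seen. Annotation was GENCODE vM21 (mm10). Python 3.11.15 with numpy 2.4.6, pandas 2.3.3 and matplotlib 3.10.9 was used. In all, 7 alternatives were planned and 1 was added after the data were seen.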

Additional observations from a re-analysis of the deposited data

Results flagged for a closer look

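The first exon at Klf9 had an FPKM of 25.52 in Pcgf1-/- and 18.16 in Pcgf1-/-+Pcgf1, against 11.72 in WT. It was picked out because these rows are in no comparison of members, the name of the locus being joined in 2 samples, and because both values exceed that of WT. The first exon at 2410080I02Rik moved the other way, from 11.72 in WT to 0.871 and 5.71. The last exon at Klf9 had 25.52 in Pcgf1-/- and 23.87 in Pcgf1-/-+Pcgf1, and was not listed in WT. The part of the joining in the Klf9 values was not tested.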

How the results depend on the processing

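Of 90 ratios of the 6 expressed members under 5 other settings, 87 kept their direction and their side of 2-fold. The exceptions were Klf4 for Pcgf1-/- to WT, at -0.73 with a pseudocount of 1 FPKM, and Klf3 by last exons only, at 0.51 for Pcgf1-/- to WT and 0.04 for Pcgf1-/-+Pcgf1 to WT. The cause was not tested. Klf4 was at the limit, with a log2 ratio that rounds to -1.0, after median-of-ratios scaling. Its scale factors differed by -0.08 (log2) in Pcgf1-/- to WT and -0.12 in Pcgf1-/-+Pcgf1 to WT, and dividing by them moved the ratios up by as much. The number of members past 2-fold in Pcgf1-/- to WT, 1 as reported, was 0 with a pseudocount of 1 FPKM and 2 when Klf9 was added by its first exon, a choice made after the data were seen. With a limit of 1.5-fold it was 2 in Pcgf1-/-+Pcgf1 to Pcgf1-/- (Klf2 with Klf4) and 2 in Pcgf1-/-+Pcgf1 to WT (Klf3 with Klf4). The share of all genes past the limit in Pcgf1-/- to WT went from 7.14% to 12.9% with a pseudocount of 0.01, 1.79% with 1 FPKM and 15.2% at 1.5-fold. In Pcgf1-/-+Pcgf1 to Pcgf1-/- it went from 8.57% to 14.4%, 2.31% and 16.6%, and in Pcgf1-/-+Pcgf1 to WT from 6.34% to 11.8%, 1.3% and 13.8%. No paired analysis was possible because each group has 1 sample, and for the same reason no sample could be left out.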
